A study of Mus musculus with 28 samples.

Results

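The genes that make cholesterol and handle sterols were followed through co-cultures of mouse breast cancer cells with muscle or lung cells. The members were 29 genes of the pathway, listed by name, out of 55536 genes counted in every library. They comprise 19 enzymes of the route from acetoacetyl-CoA to cholesterol (Ggps1 of the neighbouring isoprenoid branch among them), 5 regulators of that route and 5 genes that move, store or restrict sterol. All 29 were found in the count tables by their Ensembl identifiers.

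The study profiled polyadenylated RNA in 28 libraries of 3 mouse cell lines, all labelled wild type and kept in DMEM with fetal bovine serum. EO771 is a breast cancer line, C2C12 a muscle line used as myotubes, and MLg a lung fibroblast line. EO771 cells were held directly on C2C12 or on MLg, and the cells of each side were profiled, which gave 7 groups of 4 libraries: EO771 alone, EO771 with C2C12, EO771 with MLg, C2C12 alone, C2C12 with EO771, MLg alone and MLg with EO771. Each line is a single established line. The sources used here do not say how the sides of a culture were separated or whether replicates came from separate cultures, so the p-values reflect only the spread among these libraries, possibly a technical one. Values per library are given in the order of the replicate names: R3-1, R3-2, R5-1, R6-2 for EO771 alone; R3-1, R5-1, R5-2, R6-1 for EO771 with C2C12 and for C2C12 with EO771; R5-1, R6-1, R6-2, R7-1 for EO771 with MLg and for MLg with EO771. C2C12 alone has R2-1, R3-1, R3-2 and R5-1, and MLg alone has R3-2, R5-2, R6-1 and R6-2. What the R number stands for is not stated. The series title concerns an effect of muscle cells against tumour growth.

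Cholesterol is built from acetyl-CoA through mevalonate, isoprenoid diphosphates, squalene and lanosterol, and a chain of oxidations and reductions then turns lanosterol into cholesterol. The genes of this chain are known targets of the SREBP transcription factors, encoded by Srebf1 and Srebf2. When membrane sterol is low, the escort protein Scap carries SREBP to the Golgi, where it is cut and released to the nucleus, and when sterol is ample the Insig proteins hold Scap back. Excess sterol is esterified for storage by Soat1 or exported by Abca1, and oxysterols switch on Abca1 and Mylip through the LXR receptors. In muscle, lung and tumour cells the route serves membranes, protein prenylation and dolichol as well as cholesterol itself.

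Total counts per library ran from 27612567 to 96491326. Transcripts specific to the other line of a culture were present in the EO771 libraries at 0.591% to 1.97% of their level in the partner's own libraries, in C2C12 with EO771 at 3.23% to 4.93%, and in MLg with EO771 at 6.01% to 13.3%. The 9 fibroblast markers summed to 23756 to 30293 CPM (counts scaled to the library total) in MLg alone, 25123 to 29616 in C2C12 alone and 92.0 to 124 in EO771 alone, and of the 6 epithelial markers Cldn4 was at 0 in EO771 alone. The 8 myotube markers were all detected in C2C12 alone and in C2C12 with EO771, but their summed level was 319, 537 and 600.3 CPM in the 3 C2C12 libraries of R number 3 and 1817 to 4096 CPM in the other 5. Macrophage and endothelial marker lists summed to at most 19.3 CPM in any library. All counts were even in 5 co-cultured libraries (EO771 with C2C12 R3-1, R5-1 and R6-1, MLg with EO771 R5-1 and R6-1). Halving these counts left 15 of all 29 members higher in EO771 with C2C12, as before halving, where 18.7% of all genes were higher. Before halving, the 15 were Abca1 and Mylip, which were near 0 in EO771 alone, and 13 of the 27 other members. The count after halving was not taken without Abca1 and Mylip. In MLg with EO771 halving left 16 lower, against 17 before it, where 4.81% of all genes were lower. Reads of Fdps can be shared with Gm43738, which overlaps 26.7% of its exon bases on the same strand, those of Tm7sf2 with Vps51 (12.1%), and those of Acat2 with its close copy Acat3. Fdft1 overlaps Ctsb on the other strand over 18.3% of its exon bases, and the sources used here do not say whether strand was used in counting, so these 4 genes are less certain than the rest. Scap (13.2%) and Hmgcs1 (12.1%, with Gm48342) overlap another gene on the other strand over smaller parts.

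Promoters are shown because 15 of the 19 enzymes were lower in MLg with EO771. RefSeq promoters (GRCm38.p6, 250 bases before to 50 after the start of transcription) were at hand for 24 of the 29 members, not for Fdps, Fdft1, Sqle, Stard4 and Npc1. All motifs were searched on both strands, and the letters of none hold another. The sterol regulatory element core TCACNCCAC, the sequence SREBP binds, was found in the Hmgcs1 promoter and in no other of the 24 (4.17%, against 1.23% of 27025 genes in the table). The CCAAT box, read by NF-Y, a known partner of SREBP, was found in 20 of 24 member promoters (83.3%, against 37.9% of all). The GC box GGGCGG, read by SP factors, was found in 20 of 24 (83.3%, against 36.0%), and the E-box CACGTG in 5 of 24 (20.8%, against 7.22%). A match is a description of these letters only. Below are the bases upstream of the start, 5′ to 3′ on the gene's strand, for Hmgcs1 (chr13:119690101-119690350, plus strand), Mvd (chr8:122443423-122443672, minus strand), Insig1 (chr5:28071162-28071362, plus strand) and Insig2 (chr1:121332590-121332839, minus strand). Hmgcs1 and Mvd are enzymes that were higher in EO771 with C2C12 and lower in MLg with EO771, and the Insig genes are a pair of close relatives whose levels differed in direction in MLg. Capitals mark CCAAT on either strand (printed as CCAAT or ATTGG) and, in Hmgcs1, the element TCACCCCAC, which lies 137 to 129 bases before the start.
Hmgcs1: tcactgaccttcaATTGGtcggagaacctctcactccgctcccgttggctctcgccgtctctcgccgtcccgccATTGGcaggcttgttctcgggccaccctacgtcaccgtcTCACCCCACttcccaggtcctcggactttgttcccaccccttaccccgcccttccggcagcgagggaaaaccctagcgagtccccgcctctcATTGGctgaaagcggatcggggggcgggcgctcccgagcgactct
Mvd: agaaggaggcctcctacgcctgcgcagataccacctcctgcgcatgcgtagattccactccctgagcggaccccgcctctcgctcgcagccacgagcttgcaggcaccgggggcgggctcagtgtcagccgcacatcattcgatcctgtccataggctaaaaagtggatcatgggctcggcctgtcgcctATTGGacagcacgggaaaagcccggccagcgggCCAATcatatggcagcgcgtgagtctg
Insig1: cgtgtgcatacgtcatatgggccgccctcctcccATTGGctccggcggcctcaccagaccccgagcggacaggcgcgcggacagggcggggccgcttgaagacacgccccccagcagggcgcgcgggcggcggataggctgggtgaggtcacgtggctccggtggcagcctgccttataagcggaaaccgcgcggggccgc
Insig2: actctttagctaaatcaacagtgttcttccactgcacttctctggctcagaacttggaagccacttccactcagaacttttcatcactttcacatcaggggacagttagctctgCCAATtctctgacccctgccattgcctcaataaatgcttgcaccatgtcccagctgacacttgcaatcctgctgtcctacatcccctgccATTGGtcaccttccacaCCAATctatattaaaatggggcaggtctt

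In the lines grown alone, the summed level of the 19 synthesis enzymes was highest in MLg and lowest in C2C12, with no overlap between the 3 lines, but not every enzyme had this order. Levels between genes are compared as RPKM, the CPM divided by the kilobases of annotated exon. In MLg alone the most abundant members were Acat2, the cytosolic thiolase that opens the route, at 99.4 ± 40.8 RPKM (SD, n = 4), Nsdhl at 66.7 ± 20.8 and Ebp at 58.8 ± 4.02. Nsdhl and Ebp act late, removing methyl groups from and moving a double bond in the sterol ring. EO771 alone had other leaders, Pmvk, which phosphorylates mevalonate phosphate, at 49.4 ± 8.09 RPKM, Srebf2 at 45.2 ± 3.32 and the lanosterol demethylase Cyp51 at 40.8 ± 2.38, whose ranges touch. C2C12 alone was led by Srebf2 at 39.7 ± 10.7 RPKM and Insig2 at 32.1 ± 3.50, regulators rather than enzymes. The lowest in C2C12 were Fdps at 1.38 and the sterol reductase Tm7sf2 at 2.16 RPKM.

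**Figure D1:**
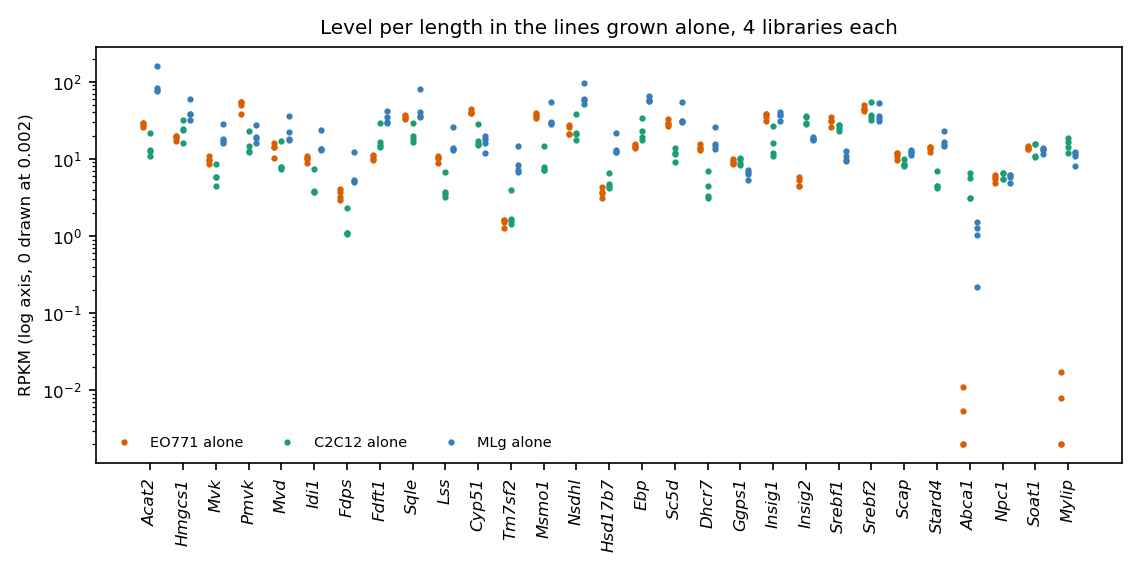
Level per length (RPKM, log axis) of the 29 members in each library of EO771, C2C12 and MLg grown alone, 4 points per line and gene. Abca1 and Mylip lie near 0 in EO771 alone, and for most enzymes the MLg points lie above the C2C12 points.

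A difference was called at an adjusted p under 0.05 in edgeR's quasi-likelihood test, with Benjamini-Hochberg adjustment over all genes tested. Against MLg alone, C2C12 alone had 19 of 29 members lower and 6 higher (background over all genes 30.9% lower and 31% higher), with Acat2 at -2.62 ± 0.26, adjusted p = 1.05e-06 and Fdps at -2.20 ± 0.32, adjusted p = 4.72e-05 (log2 fold change ± SE). EO771 alone had 15 members lower and 4 higher than MLg alone (background 40.8% and 36.8%). The 4 higher were Pmvk (1.28), Cyp51 (1.31), Srebf1 (1.52) and Ggps1 (0.52), and Tm7sf2 (-2.62) and Hsd17b7 (-2.02) were furthest below MLg among the enzymes. EO771 alone against C2C12 alone gave 13 higher and 8 lower (background 36.2% and 42%), among them Msmo1 at 1.84 ± 0.25, adjusted p = 1.15e-05 and Insig2 at -2.83 ± 0.11, adjusted p = 1.7e-11. The enzymes lower in EO771 than in C2C12 were Hmgcs1 (-0.51), Fdft1 (-0.99), Hsd17b7 (-0.60) and Ebp (-0.83). Without C2C12 alone R5-1 Hmgcs1 no longer passed the threshold there (-0.43, adjusted p = 0.0572), and without MLg alone R3-2 neither Mvd (-0.54, adjusted p = 0.0632) nor Idi1 (-0.43, adjusted p = 0.0632) did in EO771 alone against MLg alone. Without either library Npc1 did not pass in C2C12 alone against MLg alone. Insig2 stood at 18.7, 15.2, 15.2 and 20.5 CPM in EO771 alone, 66.2, 62.7, 61.6 and 62.6 in MLg alone and 124, 103, 99.5 and 119.7 in C2C12 alone. The 3 groups did not overlap, and its relative Insig1 had the reverse order between EO771 and C2C12, 0.97 (adjusted p = 0.000644).

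The summed level of the 19 synthesis enzymes was lower in MLg and higher in most EO771 libraries after culture together. It stood at 3336, 1942, 1894 and 2004 CPM in MLg alone and at 1442, 1420.3, 1365 and 1593 CPM in MLg with EO771, so that every co-cultured library was below every library alone. In EO771 it stood at 1486, 1528, 1381 and 1558 CPM alone, 2301, 1641, 1681 and 1919.9 CPM with C2C12 and 1522, 2070.2, 2084 and 1662 CPM with MLg. Both co-cultured EO771 groups lay above EO771 alone, except that with MLg the R5-1 library, at 1522 CPM, fell within the range of EO771 alone. C2C12 gave 744, 769.8, 796 and 1285 CPM alone and 749, 1217, 1219 and 1117 CPM with EO771, with overlapping ranges.

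The enzyme sums can also be set out by R number, whose meaning is not stated. For MLg and for EO771 with C2C12, whose groups did not overlap, this could only give the same direction. In MLg the sum went from 1942 to 1442 CPM at R number 5, and from 1894 and 2004 to 1420.3 and 1365 at R number 6. For EO771 with C2C12 it went from 1486 and 1528 to 2301 at R number 3, from 1381 to 1641 and 1681 at 5, and from 1558 to 1919.9 at 6. EO771 with MLg went from 1381 to 1522 CPM at R number 5 and from 1558 to 2070.2 and 2084 at 6. In C2C12 the values lay close, 769.8 and 796 against 749 CPM at R number 3, and 1285 against 1217 and 1219 at 5. A pair of libraries grown alone stood apart by their enzyme level, MLg alone R3-2 (3336 CPM) and C2C12 alone R5-1 (1285 CPM), and the counts of members called in MLg and in C2C12 are also given without them.

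**Figure D2:**
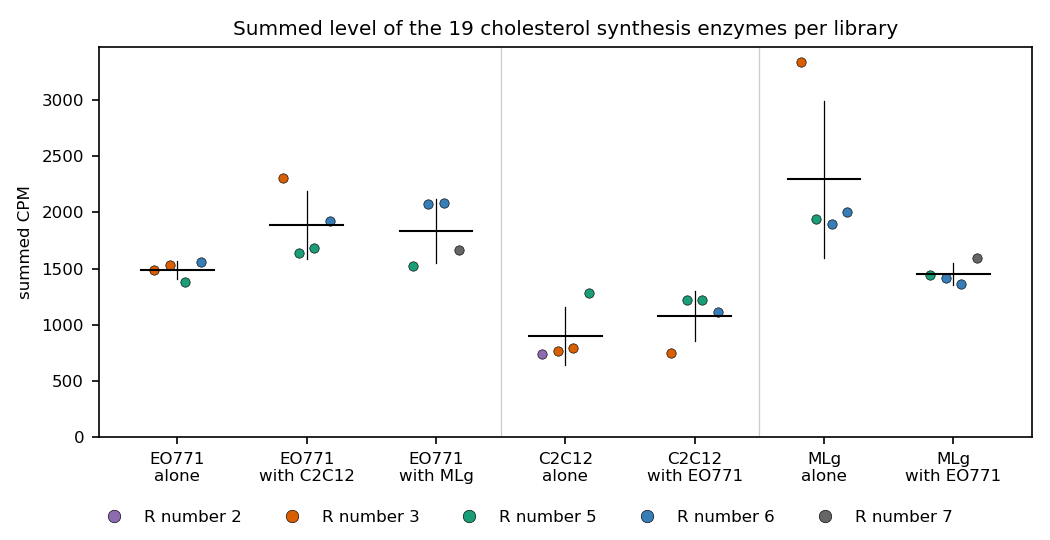
Summed CPM of the 19 synthesis enzymes in each of the 28 libraries, by group, coloured by R number; bars are means and thin lines 1 SD (n = 4). MLg libraries lie lower with EO771, the EO771 means lie higher with either partner, and MLg alone R3-2 and C2C12 alone R5-1 stand above the other libraries of their groups.

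MLg fibroblasts taken from culture with EO771 had lower RNA levels of most cholesterol synthesis genes. Of the 29 members 17 were lower and 3 higher (background 4.81% lower and 9.89% higher of 16823 genes tested), and the members' median log2 fold change was -0.60 against 0.00 over all genes. Among the 19 enzymes 15 were lower. In these bulk samples fewer cells making a transcript and less of it per cell cannot be told apart.

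The first steps were lower almost throughout. Hmgcs1, the cytosolic HMG-CoA synthase, stood at 271, 149, 175 and 177 CPM in MLg alone and 116, 89.6, 91.5 and 108 CPM with EO771. Every co-cultured library was below every library alone, and Hmgcs1 fell 1.88-fold (-0.91 ± 0.17, adjusted p = 0.00301). Acat2 went from 408, 211, 193 and 199 to 147, 149.8, 148 and 169.6 CPM, also without overlap (-0.70 ± 0.21, adjusted p = 0.0436). Mvk (-0.63) and Mvd (-0.65), a mevalonate kinase and the decarboxylase that makes isopentenyl diphosphate, were lower, whereas Pmvk between them, at -0.17 (adjusted p = 0.492), was not past the threshold.

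The isoprenoid and squalene steps followed. Idi1, which isomerises isopentenyl diphosphate, was lower (-0.69), and Fdps, the farnesyl diphosphate synthase, went from 52.0, 21.1, 22.5 and 21.8 to 14.3, 11.9, 11.3 and 17.7 CPM (-1.08 ± 0.28, adjusted p = 0.0219). The Fdps groups did not overlap, and MLg alone R3-2 was far above the other 3 libraries alone. Ggps1, which diverts farnesyl diphosphate towards protein prenylation, was not past the threshold (0.19 ± 0.09, adjusted p = 0.205). The 3 enzymes that commit to sterol were all lower: squalene synthase Fdft1 (-0.64 ± 0.11, adjusted p = 0.00245), squalene epoxidase Sqle (-0.78 ± 0.23, adjusted p = 0.0416) and lanosterol synthase Lss (-0.89 ± 0.21, adjusted p = 0.0130). Lss stood at 280.3, 143, 142 and 149 CPM in MLg alone and 105, 81.2, 86.9 and 109 CPM with EO771. Its groups were separate, as were those of Sqle (445, 202, 195 and 226 against 153, 148, 134 and 179 CPM) and Fdft1 (174, 123, 128 and 147 against 88.8, 93.5, 82.5 and 97.7 CPM).

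Of the 8 enzymes after lanosterol 6 were lower. Tm7sf2 had the largest fall of the 29 members, from 63.9, 36.9, 31.5 and 29.4 to 15.3, 19.5, 16.4 and 19.9 CPM, 2.24-fold (-1.17 ± 0.22, adjusted p = 0.00389), with no overlap. Hsd17b7, a ketosteroid reductase of the demethylation complex, went from 111, 62.9, 66.2 and 62.8 to 37.9, 41.7, 40.3 and 46.5 CPM (-0.84 ± 0.17, adjusted p = 0.00623). These groups did not overlap either, and Nsdhl (-0.66), the methylsterol oxidase Msmo1 (-0.63), the desaturase Sc5d (-0.60) and Ebp (-0.34) were lower too. The exceptions were Cyp51 (52.6, 71.2, 79.7 and 88.5 against 78.7, 62.0, 58.4 and 59.7 CPM; -0.15 ± 0.14, adjusted p = 0.531) and Dhcr7, the reductase of the last step (150.1, 91.3, 77.9 and 84.6 against 76.5, 85.2, 87.6 and 86.9 CPM; -0.25 ± 0.18, adjusted p = 0.384). Both overlapped between the groups, and MLg alone R3-2, the highest of its group for 17 of the 19 enzymes, was the lowest for Cyp51 and Ggps1.

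The regulators split. Insig1 was lower, from 116, 94.4, 124 and 115 to 95.5, 81.6, 75.5 and 76.4 CPM (-0.43 ± 0.10, adjusted p = 0.0163), while Insig2 was higher, from 66.2, 62.7, 61.6 and 62.6 to 69.1, 75.1, 76.3 and 73.7 CPM (0.24 ± 0.07, adjusted p = 0.0383). The Insig2 groups did not overlap, whereas the Insig1 groups met at 94.4 and 95.5 CPM. Srebf2 (-0.33 ± 0.15, adjusted p = 0.156), Srebf1 (0.25 ± 0.11, adjusted p = 0.160) and Scap (0.16 ± 0.10, adjusted p = 0.303) did not pass the threshold.

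Sterol handling genes did not follow the enzymes as a group. Stard4, a carrier of cholesterol between membranes, was lower (129, 82.8, 93.8 and 84.2 against 60.4, 55.8, 63.1 and 73.8 CPM; -0.60 ± 0.14, adjusted p = 0.0124). Soat1, which esterifies cholesterol for storage, was higher, from 112, 131, 135 and 129 to 159.6, 185, 194 and 160.4 CPM (0.49 ± 0.09, adjusted p = 0.00321). Its groups did not overlap, and the EO771 cells of the same cultures had 121 to 146 CPM. Mylip, a ubiquitin ligase that lowers lipoprotein receptors, was higher (25.9, 35.6, 40.0 and 39.1 against 44.5, 54.5, 63.4 and 49.5 CPM; 0.62 ± 0.14, adjusted p = 0.00975). Abca1, the cholesterol exporter, ran from 2.24 to 15.6 CPM alone and 12.3 to 32.2 CPM with EO771 (1.07 ± 0.44, adjusted p = 0.128), with the R3-2 library the lowest alone. Npc1, which releases cholesterol from lysosomes, was at 0.08 (adjusted p = 0.672).

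The size of the fall depended on MLg alone R3-2. Without it 16 members were still lower, and all 16 were among the 17 (Idi1 was lost, adjusted p = 0.0747), but the members' median was -0.33, with Hmgcs1 at -0.69, Tm7sf2 at -0.84, Fdps at -0.63, Acat2 at -0.35, Lss at -0.57 and Sqle at -0.40. Mvk (-0.38), Mvd (-0.36), Idi1 (-0.41), Msmo1 (-0.32), Nsdhl (-0.41) and Sc5d (-0.33) were closer to 0 too. Of these values those of Hmgcs1 and Tm7sf2 moved by less than 1.5 times, and the others by more. The count of lower members was 7 without MLg with EO771 R5-1, 9 without R6-1 and 8 without R6-2. Calls over all genes, in either direction, fell from 2472 to 1911, 1758 and 2080 in these fits. EO771 RNA in these libraries was highest in R5-1 (13.3% on the measure above), and with the partner's part subtracted 7 members stayed lower (Hmgcs1 -0.92, Tm7sf2 -1.09, Lss -0.94, Hsd17b7 -0.78, Stard4 -0.63, Fdft1 -0.57, Insig1 -0.46) at a median of -0.57. Subtraction also cut the calls over all genes, in either direction, from 2472 to 780.

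EO771 cells held on C2C12 had higher RNA levels of part of the route, of Insig2 and of sterol handling genes. Of the 27 members above 10 counts in at least 1 EO771 alone library 13 were higher and 1 lower (background 18.7% higher and 14.3% lower of 15794 genes tested), with a median of 0.31 against 0.00 over all genes. Of the 13, 8 were enzymes, 2 were regulators and 3 handled sterol. Abca1 and Mylip, at 0 to 4 counts in EO771 alone, are described apart. The summed epithelial markers also differed, at 92.0 to 96.8 CPM in EO771 alone and 181 to 258 CPM with C2C12, and the summed myotube markers, at 7.02 to 9.36 against 78.0 to 325 CPM. With the partner's part subtracted 14 of the members tested were higher and 1 lower, at a median of 0.33, and the part of the epithelial genes was not tested.

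Mvd had the largest change, from 26.9, 29.7, 19.0 and 26.6 CPM in EO771 alone to 90.7, 33.9, 40.2 and 58.6 CPM with C2C12, 2.07-fold (1.05 ± 0.23, adjusted p = 0.00198). All 4 co-cultured libraries were above the highest library alone, R3-1 most of all. Tm7sf2 rose from 7.07, 7.11, 6.71 and 5.56 to 20.3, 8.18, 11.0 and 12.6 CPM (0.90 ± 0.22, adjusted p = 0.00448) and Hmgcs1 from 89.7, 91.8, 79.1 and 86.2 to 187, 112, 125 and 141 CPM (0.63 ± 0.16, adjusted p = 0.00565). Neither overlapped, and R3-1 was the highest library of its group for both. The squalene steps rose by less, Fdft1 by 0.47, Lss by 0.35 and Sqle by 0.29 (log2), as did Nsdhl (0.44) and Dhcr7 (0.42). Sqle, for example, stood at 200.4, 189.7, 182 and 203 CPM alone and 269, 225, 236 and 267 CPM with C2C12. Not past the threshold were Acat2, Mvk, Pmvk, Idi1, Fdps, Ggps1, Cyp51, Msmo1, Hsd17b7, Ebp and Sc5d, which ran from -0.13 to 0.34.

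Insig2 had the smallest adjusted p of the 27. It rose from 18.7, 15.2, 15.2 and 20.5 to 38.0, 32.1, 33.5 and 37.5 CPM, 1.92-fold (0.94 ± 0.13, adjusted p = 3.25e-05), with narrow and separate groups. C2C12 cells hold more Insig2, and their part in these libraries comes to 1.22 CPM at the measured share of 1.01%. Insig1 was not past the threshold (117, 97.0, 107 and 119.8 against 163, 109.8, 108 and 124 CPM; 0.12 ± 0.12, adjusted p = 0.479). Scap was the only member to fall, from 71.4, 88.2, 88.9 and 80.1 to 56.8, 60.1, 58.6 and 66.1 CPM (-0.52 ± 0.10, adjusted p = 0.000657), without overlap, while Srebf2 rose (0.29 ± 0.10, adjusted p = 0.0350) and Srebf1 was near the threshold (0.30 ± 0.12, adjusted p = 0.0530).

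Of the sterol handling genes Soat1, Stard4 and Npc1 rose. Soat1 went from 129.8, 142, 140.4 and 133 to 171, 179, 193 and 176 CPM (0.33 ± 0.09, adjusted p = 0.0126), Stard4 from 69.3, 80.7, 80.0 and 74.5 to 125, 100.1, 99.1 and 102 CPM (0.41 ± 0.12, adjusted p = 0.0127) and Npc1 from 55.2, 68.9, 61.5 and 66.6 to 100.5, 85.6, 81.0 and 75.3 CPM (0.37 ± 0.11, adjusted p = 0.0191). The groups of all 3 were separate. Without EO771 alone R5-1 the count of higher members was 8. Without EO771 with C2C12 R3-1, the library with the highest enzyme sum, 5 of the 13 stayed higher (Mvd 0.73, Insig2 0.91, Tm7sf2 0.61, Hmgcs1 0.47, Soat1 0.36) and Scap stayed lower (-0.48).

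**Figure D3:**
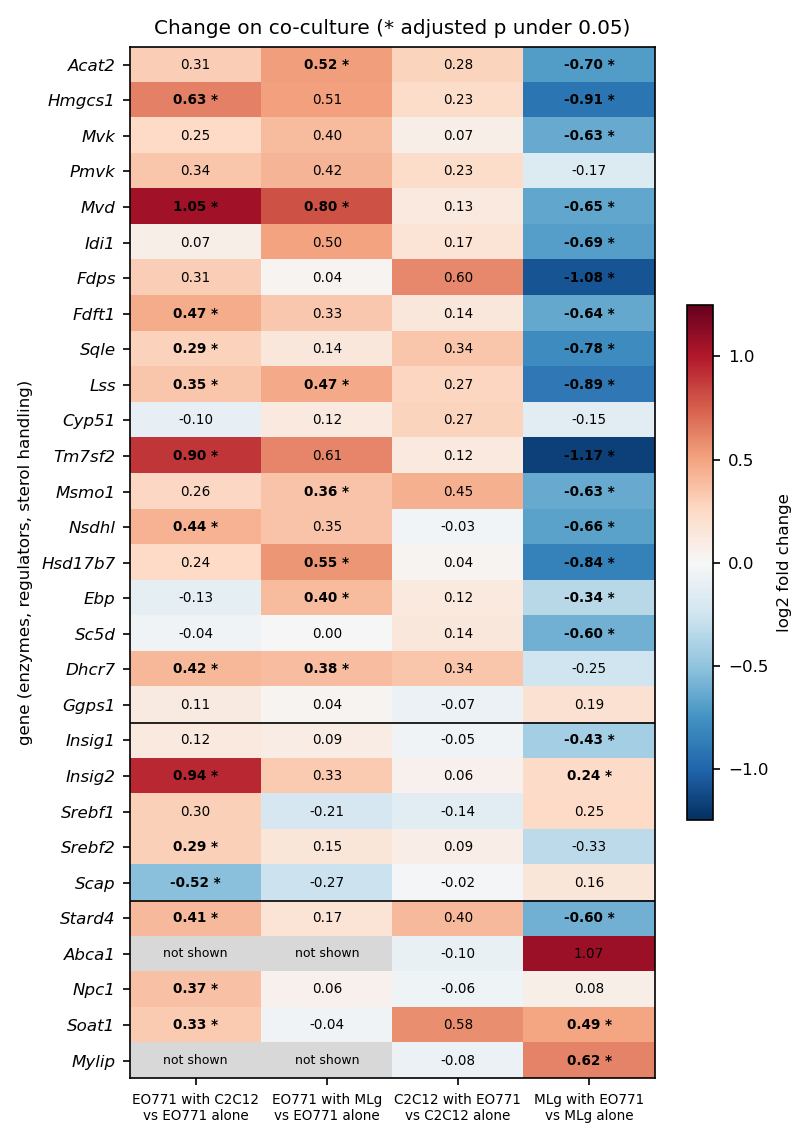
Log2 fold change of each member (rows: enzymes in pathway order, regulators, sterol handling) in the 4 comparisons of a co-cultured line with the same line alone (columns); a star and bold type mark an adjusted p under 0.05. The column of MLg is below 0 (blue) for every enzyme except Ggps1 and starred for 15 of them. Both EO771 columns are mostly red, and no member of the C2C12 column is starred. Abca1 and Mylip are not shown for EO771, where they had 0 to 4 counts per library alone.

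In EO771 held on MLg, where the summed fibroblast markers were 294 to 489 CPM, 7 of the 27 members were higher and 0 lower (background 5.99% higher and 3.6% lower). By edgeR's test at an unadjusted p under 0.05 Scap alone was lower, and DESeq2 gave 0 lower. All 7 were enzymes, and the median of the 27 was 0.33 against 0.01 over all genes. Mvd again had the largest change, from 26.9, 29.7, 19.0 and 26.6 to 33.0, 47.6, 56.8 and 38.7 CPM (0.80 ± 0.23, adjusted p = 0.0349), and Lss went from 109, 117, 96.1 and 110.3 to 131, 161, 171 and 133 CPM (0.47 ± 0.12, adjusted p = 0.0146). Both groups lay above EO771 alone. Acat2 (0.52), Hsd17b7 (0.55), Ebp (0.40), Dhcr7 (0.38) and Msmo1 (0.36) were the others. Ebp, at 33.2, 31.7, 33.7 and 36.3 CPM alone and 37.6, 49.1, 44.5 and 45.6 CPM with MLg, did not overlap, and Acat2 did not either (74.2, 70.0, 66.8 and 75.3 against 80.4, 117, 127 and 83.3 CPM). Hmgcs1 missed the threshold (93.8, 146, 155 and 96.1 CPM with MLg; 0.51 ± 0.16, adjusted p = 0.0505), and the regulators ran from -0.27 (Scap) to 0.33 (Insig2), none past it.

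These calls lie close to the threshold. Within EO771 with MLg the R6-1 and R6-2 libraries were the highest for most enzymes, and leaving out either left 1 of the 7 (Lss without R6-1, Ebp without R6-2). Leaving out EO771 alone R3-1, R3-2, R5-1 or R6-2 left 2, 3, 1 or 3 of the 7, and the fit without R5-1 of EO771 with MLg gave 11. Subtracting the partner's part left Lss and Ebp, the fit of all 28 libraries together left none of the 7, and the test without a filter on low counts gave 13. The median of the members tested was 0.33 to 0.41 under these 3 settings. Calls over all genes, in either direction, numbered 1515 in the main fit, 864 after subtraction and 1960 with no filter.

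The comparisons of EO771 with C2C12 and with MLg share the EO771 alone libraries. Mvd, Lss and Dhcr7 were higher in both. Directly between the 2 co-cultured groups 3 of 29 members were higher with C2C12 and 1 lower. Over all genes 15% were higher and 12.7% lower, so neither count is above the share over all genes. The genes below are described singly. Insig2 was higher with C2C12 (38.0, 32.1, 33.5 and 37.5 against 17.0, 25.8, 23.9 and 20.2 CPM with MLg; 0.61 ± 0.13, adjusted p = 0.00220), as were Srebf1 (262, 200.4, 224 and 212 against 139, 134, 136 and 187 CPM; 0.51 ± 0.12, adjusted p = 0.00326) and Soat1 (171, 179, 193 and 176 against 146, 133, 121 and 125 CPM; 0.37 ± 0.09, adjusted p = 0.00792). For all 3 genes, 2 regulators and the esterifying enzyme, the groups were separate. Ebp was lower with C2C12 (29.2, 31.3, 32.1 and 37.5 against 37.6, 49.1, 44.5 and 45.6 CPM; -0.53 ± 0.10, adjusted p = 0.00110). The 18 other enzymes ran from -0.43 (Idi1, adjusted p = 0.0831) to 0.28 (Tm7sf2, adjusted p = 0.359) in this contrast. With library totals as the only scaling 5 members were higher. The lower count was 2 without EO771 alone R3-1 or EO771 with MLg R5-1 and 3 without EO771 with MLg R7-1.

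**Figure D4:**
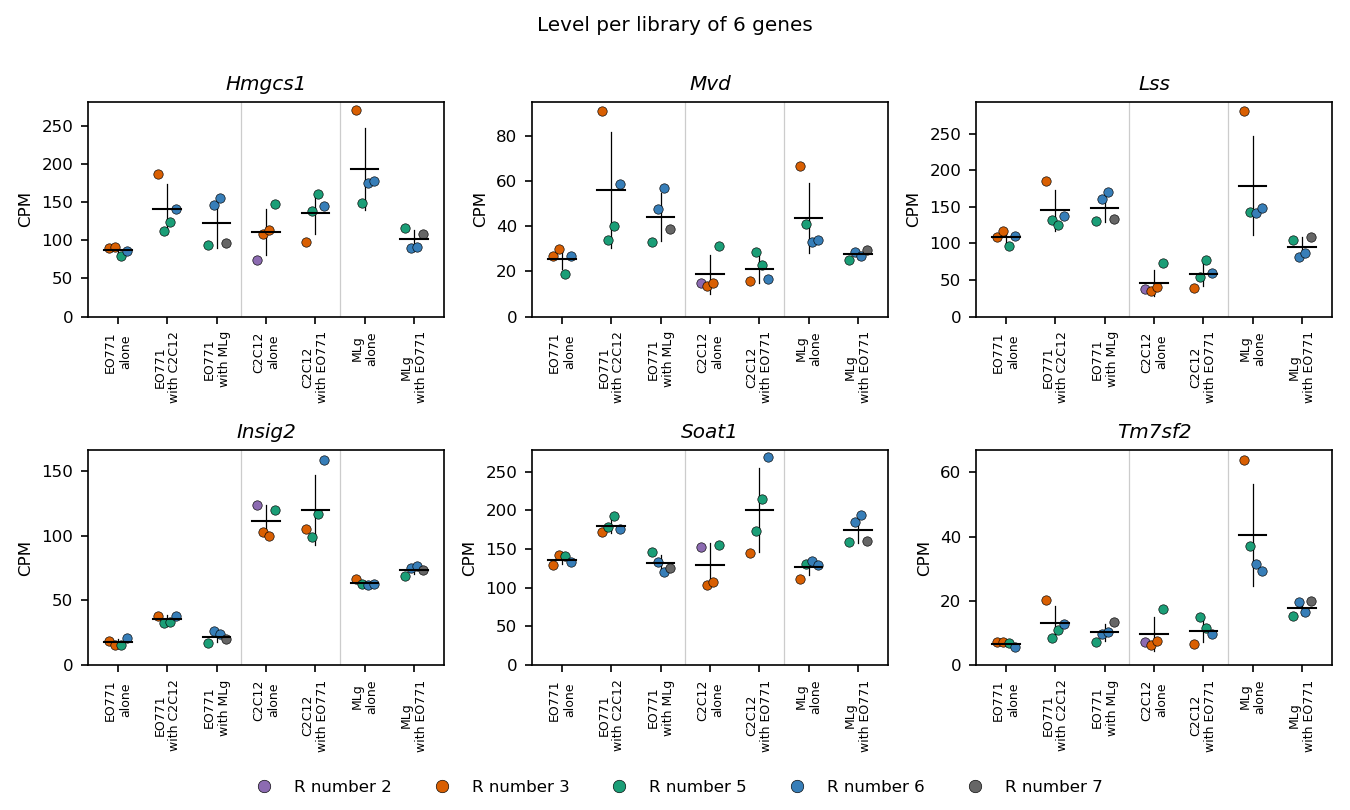
CPM of Hmgcs1, Mvd, Lss, Insig2, Soat1 and Tm7sf2 in each of the 28 libraries by group, coloured by R number; bars are means and thin lines 1 SD (n = 4). Insig2 and Soat1 lie higher in EO771 with C2C12 than in EO771 alone or with MLg, and the 4 enzymes lie lower in MLg with EO771.

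In C2C12 cells no member passed the threshold. By edgeR's test 0 of 29 were higher and 0 lower (background 2.58% higher and 0.0962% lower of 16625 genes tested), DESeq2 also gave 0 and 0, and at an unadjusted p under 0.05 only Soat1 was higher. Soat1 stood at 153, 104, 107 and 155 CPM alone and 145, 174, 215 and 269.5 CPM with EO771 (0.58 ± 0.20, adjusted p = 0.258), with overlapping groups, and in the fit of all 28 libraries it passed the threshold (adjusted p = 0.00725). Hmgcs1 stood at 74.2, 109, 113 and 148 and 97.2, 139, 160.2 and 144 CPM, and Sqle at 111, 91.9, 100.3 and 159.6 and 106, 177, 163 and 160.4 CPM. For Sqle the low libraries were those low in the enzyme sum, R2-1, R3-1 and R3-2 alone and R3-1 with EO771.

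The C2C12 libraries shared the R numbers 3 and 5 across the groups, and with a block for the R number the members' median was -0.07 instead of 0.13, again with 0 calls. Without C2C12 alone R5-1 the median was 0.37 and 1 member, Fdps, was higher (0.92, adjusted p = 0.0461). Sqle was low in the 3 C2C12 libraries of R number 3, which were low in myotube markers, and also in C2C12 alone R2-1, which was not. Without the libraries of R number 3 the median was 0.07. The part of the myotube content in these values was not tested.

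The C2C12 response minus the MLg response passed the threshold for 1 member, Hmgcs1 (1.16 ± 0.29, adjusted p = 0.0479; background 0.778% higher and 1.06% lower of 18647 genes), and 0 members were lower (1, Mylip, at an unadjusted p under 0.05, 0 by DESeq2). Fdps was at 1.70 ± 0.42, adjusted p = 0.0507 and Stard4 at 1.01 ± 0.27, adjusted p = 0.0651. When the R number entered the fit as a block, Hmgcs1 did not pass (1.03, adjusted p = 0.0765). For the other members lower in MLg no difference from C2C12 passed the threshold. The count was 5 by DESeq2, 6 without C2C12 alone R5-1 and 2 without C2C12 with EO771 R3-1, Hmgcs1 among them each time. Without MLg with EO771 R7-1 it was 1, and Hmgcs1 was not that member. It was 0 without any of the other 3 libraries of C2C12 alone, any library of MLg alone, C2C12 with EO771 R5-1, R5-2 or R6-1, or MLg with EO771 R5-1, R6-1 or R6-2.

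The EO771 response to MLg and the MLg response to EO771 share no library, and their difference was tested as a comparison chosen after these values were seen. It was higher in EO771 for 16 of the 27 members and lower for 3 (background 6.84% higher and 11.3% lower of 17658 genes). The largest were Tm7sf2 (1.73 ± 0.30, adjusted p = 0.00019), Mvd (1.39 ± 0.28, adjusted p = 0.000868), Hmgcs1 (1.38 ± 0.24, adjusted p = 0.000235), Hsd17b7 (1.34 ± 0.26, adjusted p = 0.000674) and Lss (1.31 ± 0.25, adjusted p = 0.000523). Every one of these is an enzyme that was lower in MLg. On both sides 6 members passed the threshold, higher in EO771 and lower in MLg: Acat2, Mvd, Lss, Msmo1, Hsd17b7 and Ebp. No share over all genes was taken for this joint count, and its EO771 calls lie close to the threshold. With the partner's part subtracted only Lss and Ebp of them stayed higher in EO771, and in the fit of all 28 libraries none did. Soat1 (-0.59 ± 0.14, adjusted p = 0.00403), Srebf1 (-0.51 ± 0.17, adjusted p = 0.0424) and Scap (-0.48 ± 0.15, adjusted p = 0.0271) differed the other way, Soat1 having risen in MLg and standing at -0.04 in EO771.

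Without MLg alone R3-2 the count higher in EO771 was 15, all of them among the 16, and Fdps (0.63) and Sqle (0.51) moved by over 1.5 times, from 1.06 and 0.87. Insig1 (adjusted p = 0.0522) and Scap (adjusted p = 0.0609) no longer passed without it. The count of 3 falls to 1 without MLg alone R6-1 or R6-2, EO771 alone R3-2, R5-1 or R6-2, MLg with EO771 R5-1 or R6-1, or EO771 with MLg R6-1 or R6-2. Cyp51 (0.21 ± 0.19, adjusted p = 0.495) and Ggps1 (-0.21 ± 0.14, adjusted p = 0.334) showed no difference past the threshold, and along with Pmvk and Srebf1 they were the 4 members called in no comparison of a co-cultured line with the line alone.

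**Figure D5:**
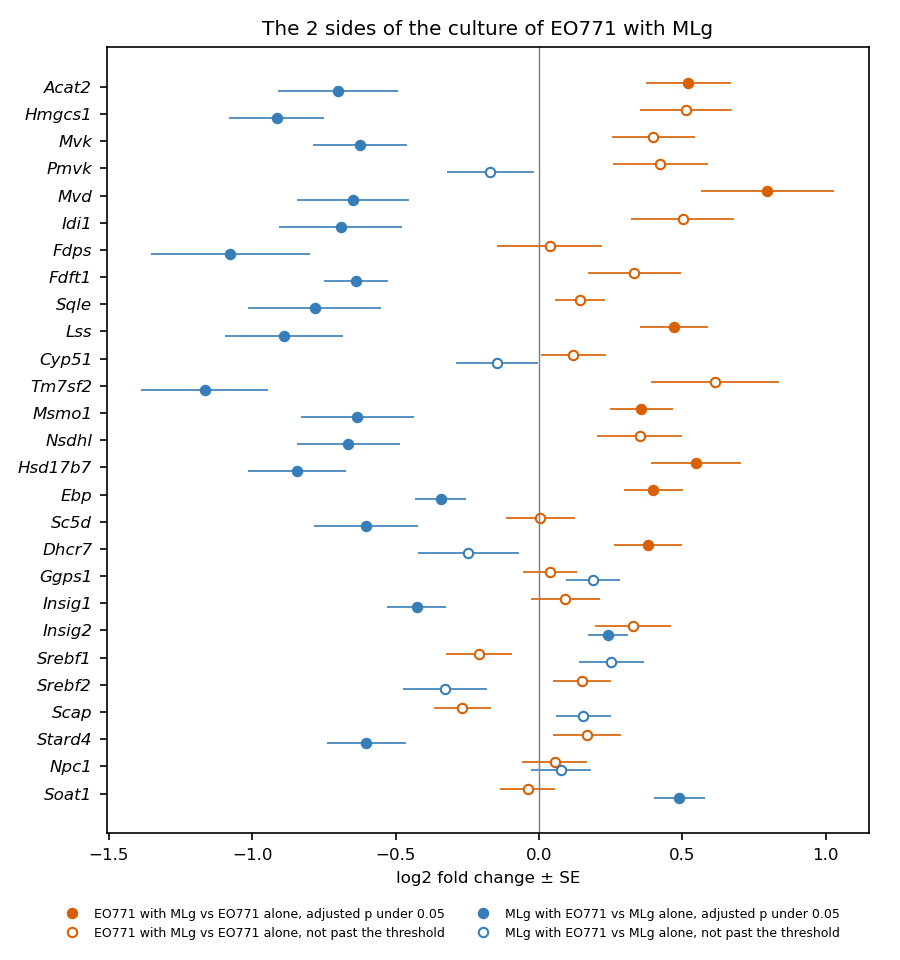
Log2 fold change ± SE of 27 members in EO771 with MLg against EO771 alone (orange) and in MLg with EO771 against MLg alone (blue); filled points have an adjusted p under 0.05. For the enzymes other than Ggps1 the blue points lie left of 0 and the orange points at or right of it, while Ggps1, Insig2 and Npc1 lie on the same side in both.

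Abca1 and Mylip were near absent from EO771 alone. Abca1 stood at 0, 0, 0.114 and 0.0561 CPM there and Mylip at 0, 0.0257, 0 and 0.0561 CPM, 0 to 4 counts per library. In EO771 with C2C12 Abca1 stood at 0.233, 0.295, 0.435 and 0.414 CPM and Mylip at 0.815, 0.127, 0.435 and 0.553 CPM, and with MLg at 0.361, 0.352, 0.272 and 0.245 and 1.17, 0.765, 0.980 and 1.13 CPM. They passed the filter on low counts only through the co-cultured groups, so no test or fold is given. The partner's level times its measured share comes to 0.466 and 0.493 CPM with C2C12, where the means were 0.344 and 0.482 CPM. With MLg it comes to 0.336 and 0.833 CPM, against means of 0.308 and 1.01 CPM. C2C12 alone had Abca1 at 32.1 to 68.5 CPM and Mylip at 38.5 to 60.2 CPM, and neither passed the threshold there with EO771 (-0.10, adjusted p = 0.950, and -0.08, adjusted p = 0.946).

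Genes next to the route were read from 7 lists of 60 genes, 59 of them found. In EO771, Mid1ip1 and Vldlr are left out of the counts, since they were near 0 alone. Fatty acid synthesis, the other SREBP programme, had 4 of 14 higher and 1 lower in EO771 with C2C12 (over all genes 18.7% and 14.3%), 1 of 14 lower in EO771 with MLg (3.6% over all genes), and 3 of 15 lower in MLg with EO771 (4.81% over all genes). In EO771 with C2C12 Lpin1, a phosphatidate phosphatase, had 22.3 ± 4.84 CPM alone and 59.4 ± 27.8 CPM with C2C12 (SD, n = 4), a rise of 1.34 ± 0.21 on the log2 scale (adjusted p = 0.000108), and Acss2, which makes acetyl-CoA from acetate, rose from 21.0 ± 5.87 to 53.3 ± 34.9 CPM (1.26 ± 0.30, adjusted p = 0.00351). The desaturase Fads1 fell (-0.24). In MLg the desaturases Scd2 (-0.50) and Fads1 (-0.37) and malic enzyme Me1 (-0.31) fell, and in EO771 with MLg Me1 fell (-0.42). Mid1ip1 was at 0 counts in EO771 alone and at 0.546 ± 0.346 CPM with C2C12 and 0.786 ± 0.327 CPM with MLg, where the partners had 27.5 ± 5.00 and 28.1 ± 1.91 CPM.

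Sterol transport, uptake and hydrolysis had 3 of 11 higher in EO771 with C2C12 (over all genes 18.7%), 1 of 12 higher in C2C12 (2.58% over all genes), and 4 of 12 higher and 1 lower in MLg (9.89% and 4.81% over all genes). A count of 1 gene says little beside these shares. Lysosomal lipase Lipa (0.64 ± 0.12, adjusted p = 0.000617) and the sterol transfer protein Gramd1b (0.58 ± 0.08, adjusted p = 3.7e-05) rose in EO771 with C2C12. In MLg the receptor Vldlr (0.65), the cholesteryl ester hydrolase Nceh1 (0.58) and Gramd1b (0.45) rose and the oxysterol-binding Osbp (-0.24) fell. Vldlr in EO771 had 0.0143 ± 0.0285 CPM alone, 0.403 ± 0.392 with C2C12 and 2.66 ± 0.818 with MLg, beside 55.1 ± 43.8 and 188 ± 40.6 CPM in the partners. The lipoprotein receptor Lrp8 had 3.20 ± 1.00 CPM in C2C12 alone and 14.1 ± 2.04 CPM in C2C12 with EO771 (2.09 ± 0.23, adjusted p = 0.000932). The EO771 cells of that culture had 183 ± 14.3 CPM. Transcripts specific to EO771 stood in C2C12 with EO771 at a mean of 4.19% of their level in those cells. The part of EO771 RNA in this difference was not tested, so it is not read as a rise in C2C12 cells.

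The other lists were small, and a count of 1 gene says little beside the shares over all genes. These were 18.7% higher and 14.3% lower in EO771 with C2C12, 5.99% and 3.6% in EO771 with MLg, and 9.89% and 4.81% in MLg. Of 4 LXR genes Nr1h2 rose (0.58) and Nr1h3 fell (-0.49) in EO771 with C2C12, the exporter Abcg1 fell in EO771 with MLg from 16.0 ± 3.18 to 6.18 ± 1.16 CPM (-1.35 ± 0.21, adjusted p = 0.000172), and Nr1h3 rose in MLg (0.87). Ch25h, which makes an oxysterol, rose in EO771 with C2C12 (0.66 ± 0.18). It had low levels in MLg, 0.439 ± 0.155 CPM alone and 1.40 ± 0.373 CPM with EO771 (1.69 ± 0.32, adjusted p = 0.00381). The EO771 cells of that culture had 5.73 ± 0.905 CPM. Transcripts specific to EO771 stood in MLg with EO771 at a mean of 8.58% of their level in those cells. The part of EO771 RNA in the Ch25h difference was not tested. Isoprenoid branch genes had 1 of 11 higher and 4 lower in EO771 with C2C12, beside 18.7% and 14.3% over all genes (Icmt 0.47, Rabggtb -0.52, Pdss1 -0.45), 1 higher in EO771 with MLg (Icmt 0.33; 5.99% over all genes), and Icmt (0.23) higher and Fnta (-0.27) lower in MLg (9.89% and 4.81% over all genes). Here too a count of 1 gene says little. Of 7 SREBP processing genes 1, Erlin1, fell in EO771 with C2C12 (-0.45; 14.3% over all genes) and rose in MLg (0.32; 9.89% over all genes). Of the 6 partner enzymes tested 2 rose in EO771 with C2C12 (18.7% over all genes), Cyb5r3 (0.47) among them. In MLg 1 rose, the electron donor Por (0.46; 9.89% over all genes).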

How the data were processed

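RNA from 28 libraries of 3 mouse lines was sequenced with a stranded poly(A) protocol, per the labels' protocols. The deposited values are raw read counts per gene, 1 file per library. Per the submitters' processing notes the authors used fastp, STAR 2.7.10a, featureCounts of Subread 2.0.1 and DESeq2. The sources used here do not give the genome build, the annotation, the strand setting or the step that made all counts even in 5 libraries. The 29 members and the other gene lists were chosen with earlier results of these data known. All 29 members are named, and from each other list at most the 3 largest rises and 3 largest falls per comparison, and not every gene of those lists is reported here.

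From the counts edgeR 4.0.16 (R 4.3.3) gave quasi-likelihood tests with TMM scaling and filterByExpr (minimum count 10, minimum total 15), fitted within each line, over the 16 host libraries for the C2C12 and MLg responses, over the 16 libraries of EO771 and MLg alone and together, and over the 12 libraries grown alone. p-values were adjusted by Benjamini-Hochberg over all genes tested, and a call needs an adjusted p under 0.05. A log2 fold change carries the SE implied by its F statistic. CPM uses library totals of 27612567 to 96491326 counts, RPKM the exon lengths of GENCODE M21. The partner's share was measured on genes with a mean of at least 10 CPM in the partner line alone and under 0.1 CPM in the line itself alone, against the partner's co-cultured libraries. The pipeline was also run on simulated data. Partner RNA, pairing by R number and libraries of only even counts were not simulated, so that run says nothing about them. Figures used matplotlib 3.10.9.

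Same-numbered libraries of C2C12 (R numbers 3 and 5) deviated together in 4 of 4 pairs (r = 0.39 to 0.72 across genes), so the R number was taken to pair them, as a hint from the data, and the blocked values are given beside the C2C12 result. In EO771 9 of 12 same-numbered pairs were above 0.1, at a median r of 0.13, against 6 of 36 pairs of unlike number, at a median of -0.04. In MLg 2 of 5 same-numbered pairs were above 0.1, against 4 of 11 of unlike number. The EO771 values are a weaker hint of pairing. The numbers were not taken to pair EO771 or MLg libraries, and counts with the block are given at the end. Alternatives were DESeq2 1.42.0 as test or scaling, library totals only, no filter, halving of even counts, subtraction of partner counts, the R number as a block, 1 fit of all 28 libraries, and leaving out each library. A pair of deposited EO771 with C2C12 files carry each other's replicate name, and the sample assignment of the deposit was followed.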

Additional observations from a re-analysis of the deposited data

Results flagged for a closer look

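In 23 of 203 groups of 4 libraries tested, member by member, 1 library stood far from the other 3. The rule flags about 1 in 20 groups of independent values. These members share the same libraries, so no excess over chance is read from the count. MLg alone R3-2 was the high library for 11 members: Acat2 at 408 CPM, Mvk at 75.6, Idi1 at 84.1, Fdps at 52.0, Sqle at 445, Lss at 280.3, Msmo1 at 339, Nsdhl at 278, Hsd17b7 at 111, Ebp at 150 and Sc5d at 264. C2C12 alone R5-1 was the high library for 9: Mvd at 31.3 CPM, Idi1 at 26.2, Fdps at 9.61, Fdft1 at 125, Lss at 72.7, Cyp51 at 124, Tm7sf2 at 17.5, Msmo1 at 89.2 and Stard4 at 38.8. The other 3 were Stard4 in EO771 with C2C12 R3-1 at 125 CPM, Srebf1 in EO771 with MLg R7-1 at 187 and Acat2 in MLg with EO771 R7-1 at 170. All 23 were high values.

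The responses of 2 lines differed by a test of the difference itself for these members. Hmgcs1 differed between C2C12 and MLg (log2 difference 1.16, adjusted p = 0.0479, edgeR's quasi-likelihood test). It did not pass the threshold with the R number as a block, with partner counts subtracted, or in most fits that left out a single library. Between the EO771 response to MLg and the MLg response to EO771 the log2 difference was 1.17 for Acat2, 1.38 for Hmgcs1, 0.97 for Mvk, 1.39 for Mvd, 1.14 for Idi1, 1.06 for Fdps, 0.92 for Fdft1, 0.87 for Sqle and 1.31 for Lss. After lanosterol it was 1.73 for Tm7sf2, 0.94 for Msmo1, 0.96 for Nsdhl, 1.34 for Hsd17b7 and 0.69 for Ebp. Insig1 (0.46) and Stard4 (0.72) differed the same way, and Srebf1 (-0.51), Scap (-0.48) and Soat1 (-0.59) the other way. This comparison was chosen after the values were seen. Without MLg alone R3-2 Fdps was at 0.63 and Sqle at 0.51, and Insig1 and Scap did not pass the threshold.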

How the results depend on the processing

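Counts here are of all 29 members, Abca1 and Mylip included, unless the 27 other members are named. Over the alternatives the calls of single members kept direction and side of the threshold in 5429 values, lost the call in 283, gained it in 140, and reversed in 0. Of the 27 other members those higher in EO771 with MLg numbered 13 with no filter, 2 with partner counts subtracted and 0 in the fit of all 28 libraries, against 7. Subtraction also cut the calls over all genes, in either direction, from 1515 to 864 there and from 2472 to 780 in MLg. Between EO771 with C2C12 and with MLg the lower count, 1, became 2 with no filter, with the R number as a block and in the 28-library fit, and the higher count, 3, became 5 with library totals only. In C2C12 1 member was higher in the 28-library fit, against 0. In MLg the lower count, 17, was 7 with partner counts subtracted and 11 in the 28-library fit, and the higher count, 3, was 5 with the block and 1 in the 28-library fit. Members higher in the C2C12 minus the MLg response, 1, numbered 0 with DESeq2's size factors, the block, partner counts subtracted or without the C2C12 libraries of R number 3, 3 with no filter, 5 by DESeq2's test and 6 in the 28-library fit. Members lower in the EO771 minus the MLg response, 3, numbered 1 with DESeq2's size factors, no filter, library totals or partner counts subtracted and 0 in the 28-library fit. For these the cause was not tested. The median log2 difference over all genes in the EO771 minus the MLg response, -0.07, was 0.05 with partner counts subtracted, 0.09 with no filter and 0.07 in the 28-library fit. With library totals only it moved from -0.12 to 0.02 between EO771 and C2C12 alone and from -0.03 to -0.19 between C2C12 and MLg alone.

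Leaving out 1 library at a time gave, of the 27 other members, 5 to 14 higher in EO771 with C2C12 and 1 to 11 in EO771 with MLg. Of all 29 members it gave 1 to 3 lower between these groups, 0 to 1 higher in C2C12 and 7 to 16 lower in MLg. The C2C12 minus MLg response gave 0 to 6 higher and the EO771 minus MLg response 1 to 3 lower. With the R number as a block 21 of all 29 members were higher in EO771 with C2C12 and 11 in EO771 with MLg. These counts were not taken without Abca1 and Mylip, and no share of higher genes over all genes stands beside them. No excess is therefore read from them. With the block 15 were lower in MLg (median -0.38), and 0 changed in C2C12. The block also moved the calls over all genes, from 5205 to 6516 in EO771 with C2C12, from 1515 to 1499 in EO771 with MLg and from 2472 to 3448 in MLg. Members of low count, Abca1 and Mylip in EO771, limit what depth can show.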
